A study of Mus musculus with 8 samples.

Results

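The genes described here are 9 transcription factors of the myeloid lineage, Sfpi1 (the array's symbol for Spi1, which encodes PU.1), Cebpa, Cebpb, Cebpd, Maf, Klf2, Klf4, Id2 and Spib. Every row of the deposited probe table that carries one of these symbols was taken. This gave 8 genes of the 18138 in the table, and 11 probes of 25697: 3 for Klf4, 2 for Id2 and 1 for each of the other genes. Cebpd was not analysed here. A probe was tested when its detection p-value, which sets it against the array's negative controls, was under 0.05 on at least 2 arrays. Of the 11 probes, 10 probes of 7 genes passed, and 6 probes were detected on all 8 arrays. The Maf probe did not pass.

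The study used these arrays to compare macrophages with and without inducible nitric oxide synthase (iNOS, the enzyme encoded by Nos2 that makes nitric oxide in activated macrophages). Bone marrow cells of female C57bl/6J mice of 8 weeks were grown in GM-CSF, a growth factor that drives bone marrow cells into macrophages and related cells, at 10 ng/ml for 7 days. WT CON is wild type left unstimulated, and WT M1 is wild type given LPS at 200 ng/ml with IFN-g at 10 ng/ml for 6 h. The groups iNOS-/- CON and iNOS-/- M1 are the same cultures from mice labelled iNOS deficient, a line that the methods name B6.129P2-Nos2tm1Lau/J. LPS is a bacterial cell wall component, and with the cytokine IFN-g it brings macrophages into the inflammatory state called M1. Each group had 2 arrays. The labels do not say whether these come from separate mice or cultures, so p-values measure the spread between arrays, which may be technical. The RNA was of whole cultures, in which fewer cells of a type and less RNA per cell cannot be told apart.

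PU.1, a factor of the ETS family, is required for macrophages, granulocytes and B lymphocytes to form, and with the C/EBP factors it switches on the genes of phagocytes. C/EBPa, C/EBPb and C/EBPd are leucine zipper proteins, of which C/EBPa is needed for granulocyte and monocyte precursors and C/EBPb for the inflammatory program of mature macrophages. KLF2 and KLF4 are zinc finger proteins, KLF4 known for driving monocyte formation and KLF2 for holding macrophages and T cells in a resting state. ID2 has no DNA-binding region and acts by capturing E proteins, and several subsets of dendritic cells need it. Spi-B, the closest relative of PU.1, is known from B lymphocytes and plasmacytoid dendritic cells, and c-Maf from macrophages that make IL-10.

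Intensities below are scaled, that is, multiplied by a factor for each array between 0.813 and 1.30 that aligned probes of unchanged rank, and log2 values were taken after raising values under 1 to 1. Between 11833 and 12673 probes were detected per array, with the 2 lowest counts (11833 and 11894) on the iNOS-/- M1 arrays. Arrays of a group differed by a median of 0.161 to 0.187 log2 units per probe and arrays of different groups by 0.344 to 0.822. The Nos2 probe was not detected in either unstimulated group. In the M1 groups its deposited intensity was 101.7 and 151.1 in WT and 164.3 and 169.9 on the arrays labelled iNOS-/- (log2 difference 0.32 ± 0.32 (SE), limma adjusted p = 0.44). The sources used here do not state which part of Nos2 the allele removes, and the probe, at position 3546 of the transcript, may lie outside it and then checks nothing. The groups are therefore named by their labels. All 8 macrophage markers with a row (F4/80, Csf1r, Cd68, Cd14, Mertk, Fcgr1, Itgam and Lyz2) were detected on every array, with summed intensities of 29741 to 29870 in WT CON, 31532 to 33916 in WT M1, 23362 to 24272 in iNOS-/- CON and 35310 to 36054 in iNOS-/- M1. Lyz2 had the highest signal in this sum, at a mean log2 intensity of 14.35 in iNOS-/- M1. Between the M1 groups 3 of the 8 were called higher in iNOS-/- M1 (Cd14, Mertk and F4/80) and 4 lower, Csf1r (-1.29), Fcgr1 (-1.03), Cd68 (-0.92) and Itgam (-0.67), with a median of -0.35. Of all 13868 probes tested, 22.9% were called higher and 25.3% lower there. Of the B cell markers, Ms4a1 and Pax5 were undetected on every array, Cd79b was detected on 1 and Blnk on all 8, at a mean log2 intensity of 6.37 to 7.92. Of the T cell markers, Cd3d, Cd3e and Cd3g were undetected on every array and Lck was detected on all 8, at 3.11 to 7.10, highest in iNOS-/- M1.

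Between the M1 groups, Klf4, Klf2 and Cebpa were lower and Id2 was higher on the arrays labelled iNOS-/-, while Sfpi1, Cebpb and Spib were not called. Of the 10 tested probes, 7 were called at a limma adjusted p under 0.05, 2 higher and 5 lower. Over all 13868 probes tested, 48.2% were called, 22.9% higher and 25.3% lower. The median absolute log2 difference was 2.30 over the 10 probes and 0.65 over all probes, and 6.95% of all probes had an absolute difference above 2.30. The 7 called probes stand for 4 genes, because 3 of them measure Klf4 and 2 measure Id2. The median over the 10 probes, and the share set against it, count these genes repeatedly as well. They also include Klf4 by ILMN_1221264, whose value is set in part by the floor.

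**Figure D1:**
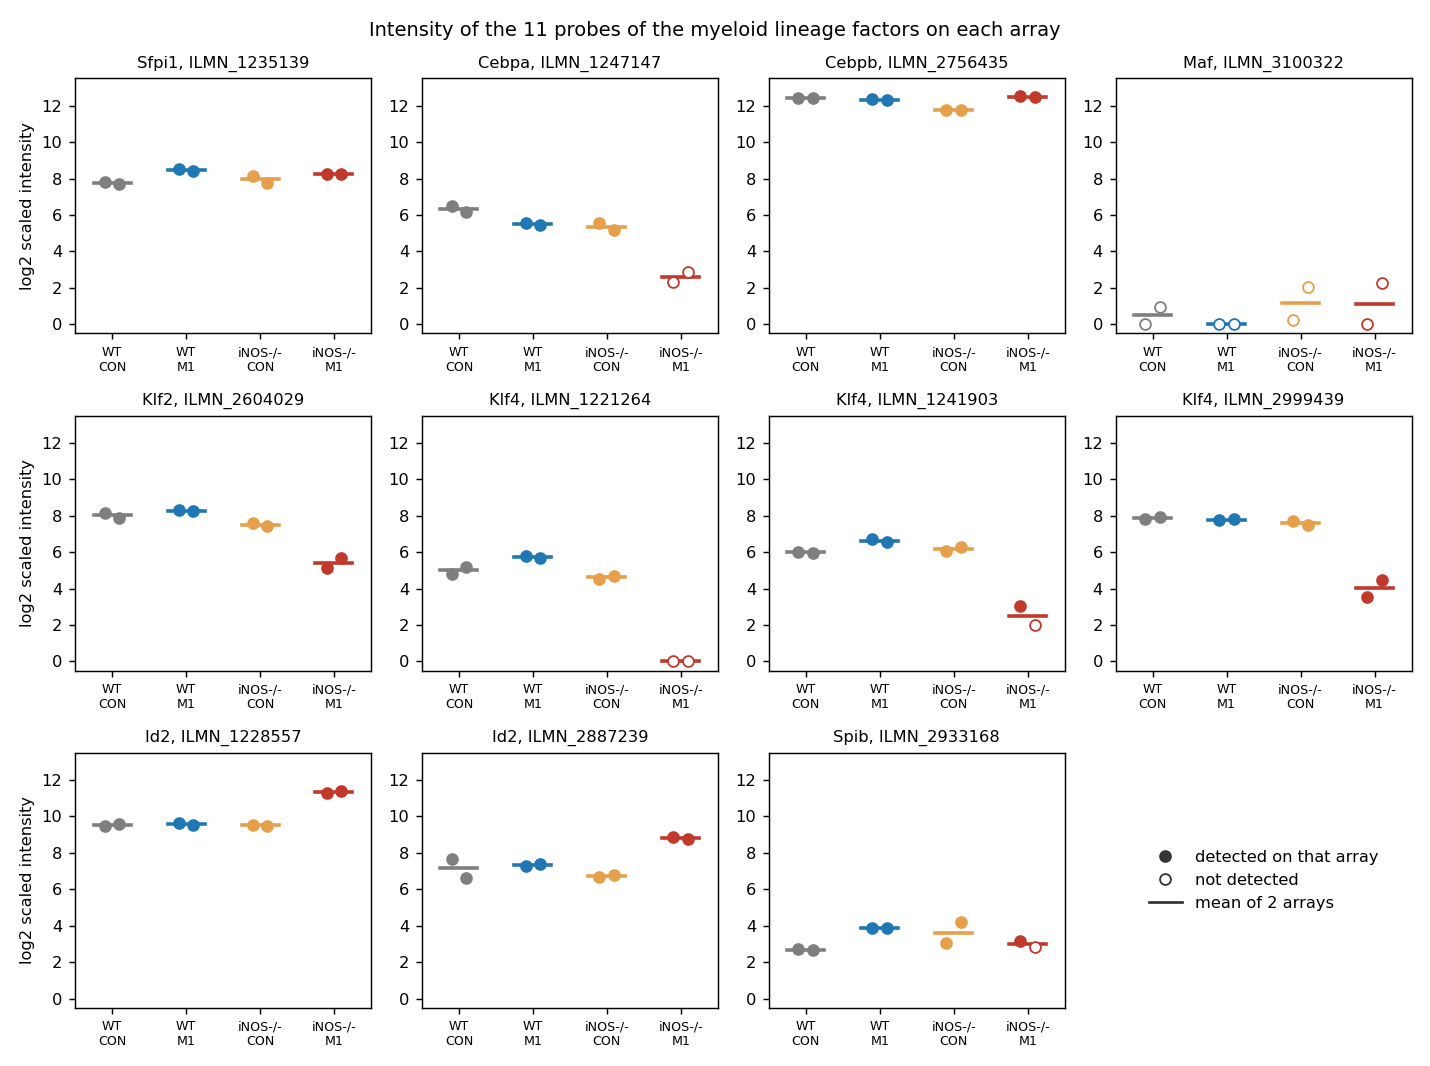
Each panel shows 1 of the 11 probes, with the log2 scaled intensity on the vertical axis and the 4 groups along the horizontal axis. Points are single arrays, open where the probe was not detected, and lines are means of 2 arrays; the 3 Klf4 probes, Klf2 and Cebpa lie lowest in iNOS-/- M1, both Id2 probes lie highest there, and Maf was not detected on any array.

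Klf4 was lower in iNOS-/- M1 by all 3 of its probes. By probe ILMN_2999439 the scaled intensities were 228 and 248 in WT CON, 218 and 224 in WT M1, 206 and 177 in iNOS-/- CON, and 11.7 and 22.2 in iNOS-/- M1. Both iNOS-/- M1 arrays lay far under the other 6, which ran from 177 to 248. The log2 difference from WT M1 was -3.77 ± 0.30 (SE, limma adjusted p = 0.00056), a 13.7-fold lower level. Probe ILMN_1241903 read 104 and 95.9 in WT M1 against 8.23 and 3.96 in iNOS-/- M1, where only 1 of the 2 arrays detected it, with a log2 difference of -4.13 ± 0.34 (adjusted p = 0.00062). Probe ILMN_1221264 read 55.8 and 50.9 in WT M1 and was not detected on either iNOS-/- M1 array, where its deposited values were 0.2 and -0.7. Where neither array of a group detected a probe, its fold is a bound, taken against the higher, per array, of its own value and the dimmest detected probe: Klf4 by this probe was at least 7.14-fold lower (adjusted p = 9.9e-05). That bound holds for this scaling. With neqc the log2 differences were smaller but called, -2.81 by ILMN_2999439, -2.32 by ILMN_1241903 and -1.80 by ILMN_1221264. With a floor of 16 the difference by ILMN_1221264 was -1.74 and was called.

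The 3 Klf4 probes are not independent measurements. Probes ILMN_1221264 and ILMN_1241903 overlap on the transcript, and their sequences from the deposited table are shown to mark the 17 bases they share, in capitals.
Klf4 ILMN_1221264: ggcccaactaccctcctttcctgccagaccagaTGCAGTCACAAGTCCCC
Klf4 ILMN_1241903: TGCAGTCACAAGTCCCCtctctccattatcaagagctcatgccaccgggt
The third, ILMN_2999439, shares no such stretch with them and gave the same direction.

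Klf2 read 315 and 302 in WT M1 and 35.5 and 51.4 in iNOS-/- M1. In WT CON it read 289 and 233, and in iNOS-/- CON 192 and 175. All 8 arrays detected it, and the 2 iNOS-/- M1 arrays were the lowest. The log2 difference between the M1 groups was -2.85 ± 0.21 (limma adjusted p = 0.00045), a 7.22-fold lower level. From high to low the groups ran WT M1, WT CON, iNOS-/- CON and iNOS-/- M1, with no overlap between neighbours. The same order held for Klf4 by ILMN_1221264, but ILMN_1241903 placed iNOS-/- CON second and ILMN_2999439 placed WT CON first.

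Cebpa showed its highest level in WT CON, at 91.6 and 72.8, and read 47.7 and 43.9 in WT M1 and 47.4 and 36.0 in iNOS-/- CON. It was not detected on either iNOS-/- M1 array, at 5.05 and 7.21. WT M1 and iNOS-/- CON overlapped, and the other neighbours in this order were apart. Between the M1 groups Cebpa was at least 6.13-fold lower in iNOS-/- M1 (limma adjusted p = 0.00059). That bound holds for this scaling, and the fitted log2 difference was -1.40 with neqc and -1.86 when the scaling line had an intercept, both called.

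The starts of Klf2, Klf4 and Cebpa, which were lower together, and of Id2, which was higher, are shown as the 250 bases before each gene's start (RefSeq, GRCm38.p6, 5' to 3' in the direction of the gene). Such a sequence was found for 6 of the 9 genes (Cebpa, Cebpb, Id2, Klf2, Klf4 and Spib). Capitals mark, on either strand, GGGCGG (the GC box), TATAAA (the TATA box), the MEF2 motif and TGACG (the core of the cAMP response element). Neighbouring GC boxes may share bases.
Klf2, chr8:72318812-72319061, plus strand: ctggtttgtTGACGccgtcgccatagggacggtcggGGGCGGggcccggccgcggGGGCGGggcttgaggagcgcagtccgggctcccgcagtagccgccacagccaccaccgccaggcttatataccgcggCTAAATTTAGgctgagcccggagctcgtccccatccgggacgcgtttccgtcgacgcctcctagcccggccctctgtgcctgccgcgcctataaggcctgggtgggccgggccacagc
Klf4, chr4:55532476-55532725, minus strand: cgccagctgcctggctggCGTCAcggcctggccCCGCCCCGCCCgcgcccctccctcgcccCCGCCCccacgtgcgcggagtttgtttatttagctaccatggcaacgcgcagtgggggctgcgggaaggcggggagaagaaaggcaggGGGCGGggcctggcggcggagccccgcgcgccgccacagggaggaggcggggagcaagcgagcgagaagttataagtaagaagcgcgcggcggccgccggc
Cebpa, chr7:35119043-35119292, plus strand: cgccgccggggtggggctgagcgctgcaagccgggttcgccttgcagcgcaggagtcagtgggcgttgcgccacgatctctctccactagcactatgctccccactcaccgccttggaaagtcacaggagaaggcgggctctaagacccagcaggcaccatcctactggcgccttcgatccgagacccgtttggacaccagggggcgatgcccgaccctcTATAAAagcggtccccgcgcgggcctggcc
Id2, chr12:25096093-25096342, minus strand: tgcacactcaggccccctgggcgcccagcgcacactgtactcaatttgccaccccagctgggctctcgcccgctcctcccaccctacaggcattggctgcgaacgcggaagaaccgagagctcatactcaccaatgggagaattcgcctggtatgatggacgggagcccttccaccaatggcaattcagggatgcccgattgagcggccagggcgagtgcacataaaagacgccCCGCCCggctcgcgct
Klf2 held 2 GC boxes, 1 MEF2 motif and 1 TGACG, Klf4 held 4 GC boxes and 1 TGACG, Id2 held 1 GC box, and Cebpa held 1 TATA box and no GC box. Of all 32851 promoters of this length, 32.7% held GGGCGG, 17.8% TGACG, 12.4% TATAAA and 3.20% the MEF2 motif. The bases were G or C in 71.2% of Klf2, 74.0% of Klf4, 66.4% of Cebpa and 62.8% of Id2, against a median of 52.4% over all promoters. The PU.1 motif GAGGAA (in 23.3% of all promoters), the C/EBP motif TTGCNNAA (9.56%), the STAT motif TTCNNNGAA (7.02%) and the interferon-stimulated element (2.98%) had no match in these 4 windows. CACCC (52.0%) and CANNTG (66.2%) were searched as well and are not capitalised. A match or its absence describes the letters in these windows only.

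Id2 was the member that was higher in iNOS-/- M1. By probe ILMN_1228557 the scaled intensities were 705 and 759 in WT CON, 796 and 732 in WT M1, 749.6 and 711 in iNOS-/- CON, and 2479 and 2678 in iNOS-/- M1. The first 3 groups overlapped, and both iNOS-/- M1 arrays lay above them. The log2 difference between the M1 groups was 1.76 ± 0.10 (limma adjusted p = 0.00025), a 3.38-fold higher level. Probe ILMN_2887239 read 155 and 166 in WT M1 and 465 and 429 in iNOS-/- M1, a log2 difference of 1.48 ± 0.34 (adjusted p = 0.018). This second call was lost without either WT M1 array (adjusted p = 0.076 and 0.066) or either iNOS-/- M1 array (0.072 and 0.058), and the 2 WT CON arrays were far apart by this probe, at 206 and 97.5.

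Markers of other cell types also differed between the groups that differ in Id2, Klf4, Klf2 and Cebpa. Of 8 dendritic cell markers with a row, Flt3 was undetected on every array, and 5 were detected on both arrays in WT CON, 7 in WT M1, 7 in iNOS-/- CON and 6 in iNOS-/- M1. Their summed intensity was 329 to 377 in WT CON, 6201 to 6226 in WT M1, 5016 to 5223 in iNOS-/- CON and 17344 to 18602 in iNOS-/- M1. Il4i1 carried most of this sum in iNOS-/- M1 (mean log2 intensity 13.75) and went from 6.24 in WT CON to 12.16 in WT M1. Between the M1 groups 3 of 7 tested were called higher, Ccr7, Il4i1 and Ciita, and 1 lower, Cd209a, which was undetected in iNOS-/- M1 and at least 4.21-fold lower. Of all probes, 22.9% were called higher and 25.3% lower between these groups. Of 7 granulocyte markers, Mpo was undetected on every array and 3 in WT CON and 6 in every other group were detected on both arrays, with sums of 1120 to 1140 in WT CON, 1392 to 1499 in WT M1, 1679 to 1736 in iNOS-/- CON and 3860 to 3985 in iNOS-/- M1. S100a8 had the highest signal in this sum, at a mean log2 intensity of 11.50 in iNOS-/- M1. For 5 plasmacytoid dendritic cell markers (Ly6d undetected throughout) the sums were 647 to 687, 1207 to 1266, 696 to 884 and 3499 to 3500.2 in that order of groups. Irf7, Tcf4 and Bst2 were called higher in iNOS-/- M1 than in WT M1, and Siglech, undetected in iNOS-/- M1, was at least 2.16-fold lower. For 8 markers of dividing cells (Ccnb2 and Bub1 undetected throughout) they were 508 to 557, 1727 to 1841, 2040 to 2043 and 606 to 612. Of the 4 T cell markers with a row 1 was detected on both arrays of every group, with sums of 6.34 to 148. In wild type the stimulus raised 6 of 7 tested dendritic cell markers, 4 of 6 granulocyte markers and 4 of 4 plasmacytoid markers. It lowered 0, 1 and 0, where 20.8% of all probes were called higher and 14.3% lower. Irf7, for example, went from a mean log2 intensity of 3.65 in WT CON to 7.55 in WT M1. The bounds for Cd209a and Siglech hold for this scaling and were not checked under the alternatives. The part of these cell types, or of the stimulus acting on these genes, in the results was not tested.

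Sfpi1 read 368 and 344 in WT M1 and 300.1 and 299.8 in iNOS-/- M1, against 226 and 209.5 in WT CON and 287 and 214 in iNOS-/- CON. The M1 groups did not overlap, but their log2 difference of -0.25 ± 0.16 was not called (limma adjusted p = 0.25), with a 95% interval from -0.64 to 0.15. WT M1 was the highest group and iNOS-/- M1 the next, and the unstimulated groups overlapped. Cebpb read 5250 and 5102 in WT M1 and 5826 and 5690.4 in iNOS-/- M1. Its log2 difference of 0.15 ± 0.07 was not called (adjusted p = 0.15), and its direction rested on the scaling. After quantile normalization or neqc the difference was -0.32 and was called lower (adjusted p = 0.026 and 0.015). With a floor of 16 or no detection filter it stayed at 0.15 and was called higher (adjusted p = 0.0031 and 0.019).

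Spib and Maf were at or near the limit of detection. Spib read 6.60 and 6.25 in WT CON, 14.9 and 14.4 in WT M1, 8.29 and 18.1 in iNOS-/- CON and 8.89 and 7.09 in iNOS-/- M1, with the last of these arrays undetected. Its log2 difference between the M1 groups was -0.89 ± 0.37 and was not called (limma adjusted p = 0.10). It was called at the same size without either iNOS-/- CON array (-0.89, adjusted p = 0.0099 for array 2 left out). Maf had deposited values between -1.8 and 5.1 on the 8 arrays, none of them detected, and no fold is given.

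**Figure D2:**
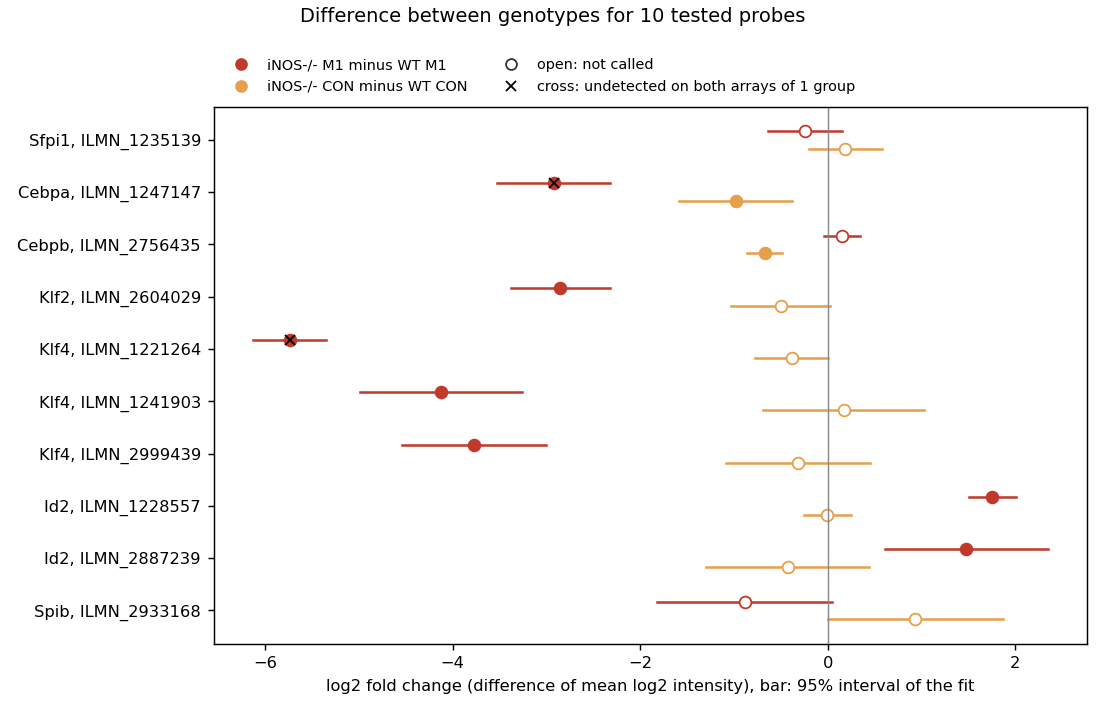
The log2 fold change between genotypes (horizontal axis) of each of 10 tested probes, in M1 cultures (red) and unstimulated cultures (orange), with 95% intervals of the limma fit. Filled points were called, open points were not, and a cross marks a probe undetected on both arrays of a group, whose position depends on the floor; the large differences of Klf4, Klf2, Cebpa and Id2 are in the M1 cultures, and Cebpa and Cebpb were called in the unstimulated ones.

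Between the unstimulated groups, Cebpa and Cebpb were lower on the arrays labelled iNOS-/- and no other member was called. Thus 2 of 10 probes were called, 0 higher and 2 lower, where 32.2% of all probes were called, 16.7% higher and 15.4% lower. Cebpb read 5515 and 5545 in WT CON and 3462 and 3474 in iNOS-/- CON. The 2 pairs did not overlap, and the log2 difference was -0.67 ± 0.07 (limma adjusted p = 0.0025), a 1.59-fold lower level. Cebpa, with the values given above, differed by -0.98 ± 0.24 (adjusted p = 0.030), a 1.98-fold lower level. It was not called with no detection filter, with the 4 unstimulated arrays alone or with a replicate block (adjusted p = 0.070, 0.058 and 0.056). The Cebpa call was also lost without any 1 of the 6 arrays of WT CON, WT M1 and iNOS-/- CON. With an array left out its difference ran from -1.18 to -0.77.

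Id2 differed by -0.00 ± 0.10 by ILMN_1228557, with a 95% interval from -0.25 to 0.24, and by -0.43 ± 0.34 by ILMN_2887239. Klf2 differed by -0.50 ± 0.21 (limma adjusted p = 0.13) with no overlap between the groups, and the Klf4 probes by -0.39 ± 0.15, 0.17 ± 0.34 and -0.32 ± 0.30. Sfpi1 differed by 0.19 ± 0.16 and Spib by 0.93 ± 0.37 (adjusted p = 0.12). Klf4 by ILMN_1221264 was called lower with quantile normalization (-0.50, adjusted p = 0.0495) and neqc (-0.32, adjusted p = 0.035), and Klf2 with neqc (-0.49, adjusted p = 0.020) and with an intensity trend in the variance (adjusted p = 0.025). Without WT CON array 1 the Klf4 difference by ILMN_1221264 became -0.61 and was called (adjusted p = 0.038). Without iNOS-/- CON array 1 the Spib difference became 1.5045 and was called (adjusted p = 0.011), and without WT CON array 2 the second Id2 probe became -0.99 and was called (adjusted p = 0.013).

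In wild type, LPS with IFN-g raised Sfpi1 and lowered Cebpa, and raised Klf4 by 1 of its 3 probes. Called were 3 of 10 probes, 2 higher and 1 lower, where 35.1% of all probes were called, 20.8% higher and 14.3% lower. Sfpi1 rose by 0.71 ± 0.16 on the log2 scale (1.63-fold, limma adjusted p = 0.021). Cebpa fell by 0.84 ± 0.24 on the log2 scale (adjusted p = 0.046). That fall was not called with no detection filter or with a replicate block (adjusted p = 0.099 and 0.076). Klf4 rose in wild type, by ILMN_1221264, by 0.73 ± 0.15 (adjusted p = 0.018), while the other Klf4 probes, at 0.65 ± 0.34 and -0.11 ± 0.30, were not called. That rise was not called with the 4 wild-type arrays alone or an intensity trend (adjusted p = 0.071 and 0.099). Spib had the largest change, 1.19 ± 0.37 with no overlap, and was not called (adjusted p = 0.057). It was called with the 4 wild-type arrays alone (adjusted p = 0.013) and was at 0 with a floor of 16. Klf2, at 0.25 ± 0.21, Cebpb, at -0.10 ± 0.07, and Id2, at 0.06 ± 0.10 and 0.18 ± 0.34, were not called. The Sfpi1 call was lost without any 1 of the 4 wild-type arrays (adjusted p from 0.066 to 0.099), and the Cebpa call without any 1 of the 6 arrays outside iNOS-/- M1 (0.056 to 0.17). The Klf4 call was lost without WT CON array 1 or either WT M1 array (0.053 to 0.078).

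In the cultures labelled iNOS-/-, the same stimulus raised Id2 and Cebpb and lowered Klf4, Klf2 and Cebpa. Called were 8 of 10 probes, 3 higher and 5 lower, where 50.3% of all probes were called, 25.2% higher and 25.1% lower. The 8 called probes stand for 5 of the 7 tested genes, 2 higher and 3 lower. Id2 rose by 1.82 ± 0.10 on the log2 scale by ILMN_1228557 (limma adjusted p = 0.00012) and by 2.08 ± 0.34 by ILMN_2887239 (adjusted p = 0.0051). Cebpb rose by 0.73 ± 0.07 (adjusted p = 0.00090), from 3462 and 3474 to 5826 and 5690.4. This call rested on the scaling, since the change was 0.10 after quantile normalization or neqc (adjusted p = 0.37 and 0.40).

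Klf2 fell by 2.10 ± 0.21 in these cultures (limma adjusted p = 0.00082). Klf4 fell by 3.56 ± 0.30 by ILMN_2999439 and 3.65 ± 0.34 by ILMN_1241903, and was at least 3.29-fold lower by ILMN_1221264. Cebpa was at least 5.54-fold lower (adjusted p = 0.00050). These bounds hold for this scaling. With neqc the fitted log2 changes were -1.09 for Klf4 by ILMN_1221264 and -1.36 for Cebpa. With a floor of 16 they were -0.62 and -1.37, and all of these were called. Sfpi1, at 0.27 ± 0.16, and Spib, at -0.63 ± 0.37, were not called. Without iNOS-/- CON array 1 both were, Sfpi1 at 0.48 (adjusted p = 0.034) and Spib at -1.20 (adjusted p = 0.0087).

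**Figure D3:**
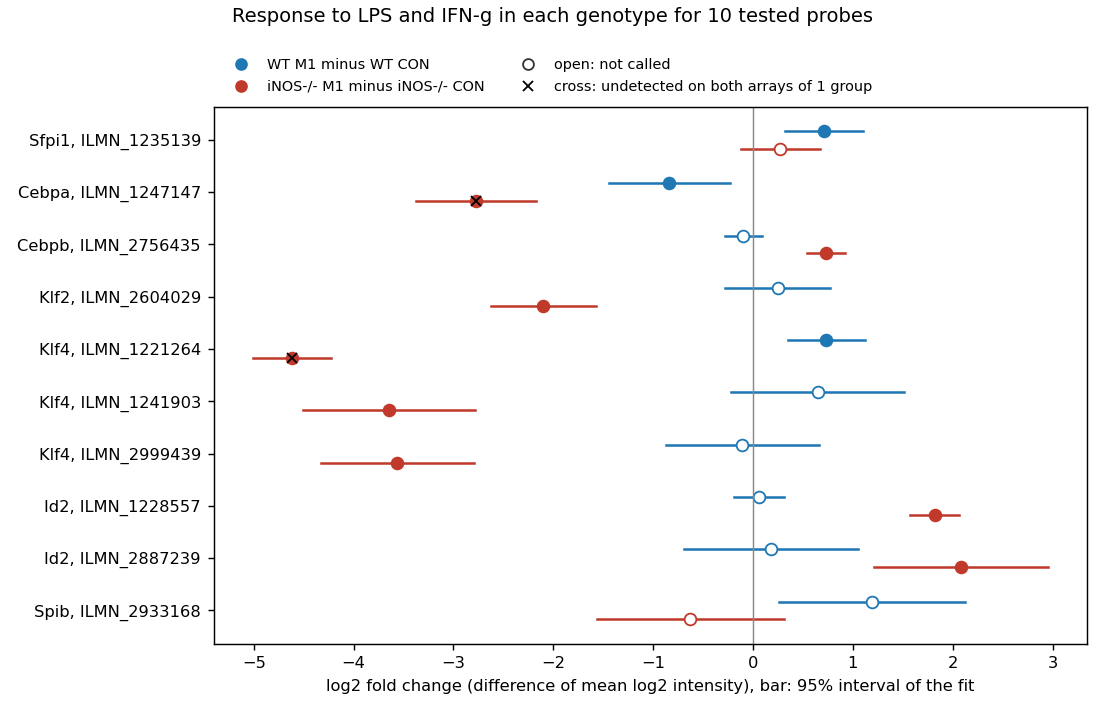
The log2 fold change from unstimulated to M1 (horizontal axis) of each of 10 tested probes in wild type (blue) and in the cultures labelled iNOS-/- (red), with 95% intervals of the limma fit. Filled points were called and crosses mark a probe undetected on both arrays of a group; the 3 Klf4 probes lie between -0.11 and 0.73 in wild type and, in iNOS-/-, at -3.65 and -3.56 for ILMN_1241903 and ILMN_2999439 and at a position set by the floor for ILMN_1221264.

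The response to LPS with IFN-g was then compared between the genotypes by the interaction term of the same fit. It was called for 9 of 10 probes, 3 higher and 6 lower in iNOS-/-, where 42.0% of all probes were called, 19.4% higher and 22.6% lower. The 9 called probes stand for 6 of the 7 tested genes, 2 higher and 4 lower. The median absolute difference of the responses was 1.92 log2 units over the 10 probes, which count Klf4 and Id2 repeatedly, and 0.80 over all probes. The comparisons above share their arrays, so each change stands with its own value and no relation between them was computed. The response of Klf2 in iNOS-/- lay 2.35 ± 0.30 log2 units under that in wild type (-2.35, limma adjusted p = 0.0030), and that of Id2 by ILMN_1228557 lay 1.76 ± 0.14 above it (adjusted p = 0.00080). For Klf4 the differences were -3.45 ± 0.43, -4.30 ± 0.48 and -5.35 ± 0.22, the last with the undetected group at the floor. Sfpi1, at -0.43 ± 0.22 (adjusted p = 0.17, 95% interval -0.99 to 0.12), was the member not called. Without iNOS-/- CON array 2 it became -0.66 and was called (adjusted p = 0.034).

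For Cebpa the response differed by -1.94 ± 0.34 (limma adjusted p = 0.0084), which fell short of the threshold at -0.53 when values under 16 were set to 16 (adjusted p = 0.17). For Cebpb it differed by 0.83 ± 0.11 (adjusted p = 0.0032), and by 0.30 and not called after quantile normalization or neqc (adjusted p = 0.093 and 0.083). For Id2 by ILMN_2887239 it differed by 1.90 ± 0.49 (adjusted p = 0.029), a call lost without any 1 of the 6 arrays outside WT CON (0.064 to 0.083). For Spib it differed by -1.82 ± 0.52 (adjusted p = 0.041), a call lost without any 1 of the 6 arrays outside iNOS-/- CON. The Spib difference was -0.09 with a floor of 16 and -0.43 when the scaling line had an intercept. Neither was called (limma adjusted p = 0.51 and 0.41).

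Relatives of the members were listed by family, to set the members beside the factors they resemble. Counts of called genes in these lists stand against 48.2% of all probes called between the M1 groups (22.9% higher, 25.3% lower) and 32.2% between the unstimulated groups (16.7% higher, 15.4% lower). Among 3 tested C/EBP relatives, 2 were lower in iNOS-/- M1 than in WT M1 and 0 higher, with a median of -0.93 against -0.03 over all probes. Cebpe, which acts late in granulocyte formation, differed by -1.06 ± 0.11 (limma adjusted p = 0.0013), and Ddit3 (CHOP, a C/EBP partner induced by stress) by -0.61 ± 0.09 (adjusted p = 0.0038). Cebpg was not called (-0.93 ± 0.69, undetected on both iNOS-/- M1 arrays, and 0.37 when the scaling line had an intercept), and Cebpz was undetected on every array. Between the unstimulated groups Cebpe was higher by 1.30 ± 0.11 and Ddit3 lower (-1.02 ± 0.09), and Cebpg was at 0.88 ± 0.69.

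Among the ID proteins, Id1 and Id3 were lower in iNOS-/- M1, in the opposite direction to Id2. Id1 read a mean log2 intensity of 5.60 in WT M1 and 4.15 in iNOS-/- M1 (-1.45 ± 0.15, limma adjusted p = 0.0011). Id3 read 5.55 in WT M1 and was not detected on either iNOS-/- M1 array, at least 6.29-fold lower (adjusted p = 0.0065). Between the unstimulated groups Id1 was undetected in WT CON and at least 9.48-fold higher in iNOS-/- CON, and Id3 was at 1.79 ± 0.70 and not called (adjusted p = 0.11), although 7 of 17 settings called it higher (1.01 with neqc, adjusted p = 0.00020, and 1.80 without either iNOS-/- M1 array, 0.013 and 0.014). Id4 was undetected on every array. The bounds for Id1 and Id3 hold for this scaling. Under the alternatives the fitted log2 difference came down to 1.63 for Id1 between the unstimulated groups. For Id3 between the M1 groups it came down to -1.53.

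The E proteins, which the ID proteins bind, are represented by Tcf4 and Tcf12. Tcf4 (E2-2) was higher in iNOS-/- M1 by 1.61 ± 0.10 (limma adjusted p = 0.00031) and did not differ to a called extent between the unstimulated groups (-0.06 ± 0.10). Tcf12 was at 0.25 ± 0.12 between the M1 groups, not called (but called with quantile normalization, neqc or an intercept, at 0.43, 0.32 and 0.36), and lower in iNOS-/- CON (-0.79 ± 0.12, adjusted p = 0.0067). The array's symbol Tcf3 belongs by its gene identifier to Tcf7l1 and not to the E protein E2A, and was left out. Of the 4 tested genes of this list, 1 was higher and 2 lower between the M1 groups, with a median of -0.60.

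Of 7 tested ETS relatives, 4 were higher and 2 lower between the M1 groups (median 0.50), where 22.9% of all probes were higher and 25.3% lower. Etv6, a repressor of the family, was higher by 1.82 ± 0.16, Ets2 higher by 1.14 ± 0.11, and Fli1, known from blood stem cells and megakaryocytes, lower (-1.58 ± 0.14). Of 7 tested KLF relatives, 2 were higher and 2 lower (median 0.11), Klf6 at 0.98 ± 0.10, Klf13 at -1.24 ± 0.08 and Klf9 at -0.73 ± 0.10. Of 6 tested MAF relatives, 0 were higher and 2 lower (median -0.46), with Bach1, a repressor of heme oxygenase, at -1.12 ± 0.12. Between the unstimulated groups 2 ETS relatives were higher and 0 lower, Etv6 at 0.69 ± 0.16, a call that held in 10 of 18 settings (0.31 with neqc, and lost without either WT CON or either iNOS-/- CON array, adjusted p = 0.066 to 0.11). Of the KLF relatives 1 was higher there and 1 lower, Klf7 at 1.07 ± 0.10 and Klf9 at -1.58 ± 0.10, and 0 MAF relatives were higher and 1 lower, Mafg at -0.44 ± 0.08, a call lost without either iNOS-/- CON array (adjusted p = 0.055 and 0.057).

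A further list mixed factors of myeloid cells, dendritic cells and other blood lineages. Between the M1 groups 4 of its 10 tested genes were higher and 2 lower (median 0.78), against the same 22.9% and 25.3% of all probes. Ikzf1 (Ikaros, a lymphoid factor) was higher by 1.21 ± 0.17 and Gata2, a factor of stem cells and mast cells, by 1.18 ± 0.11, while Runx1, required for blood stem cells to form, was lower (-2.05 ± 0.24). Between the unstimulated groups 3 were higher and 1 lower, with Zbtb46, a marker of conventional dendritic cells, at 2.62 ± 0.24, Gata2 at 1.99 ± 0.11 and Irf4 at 1.27 ± 0.10.

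**Figure D4:**
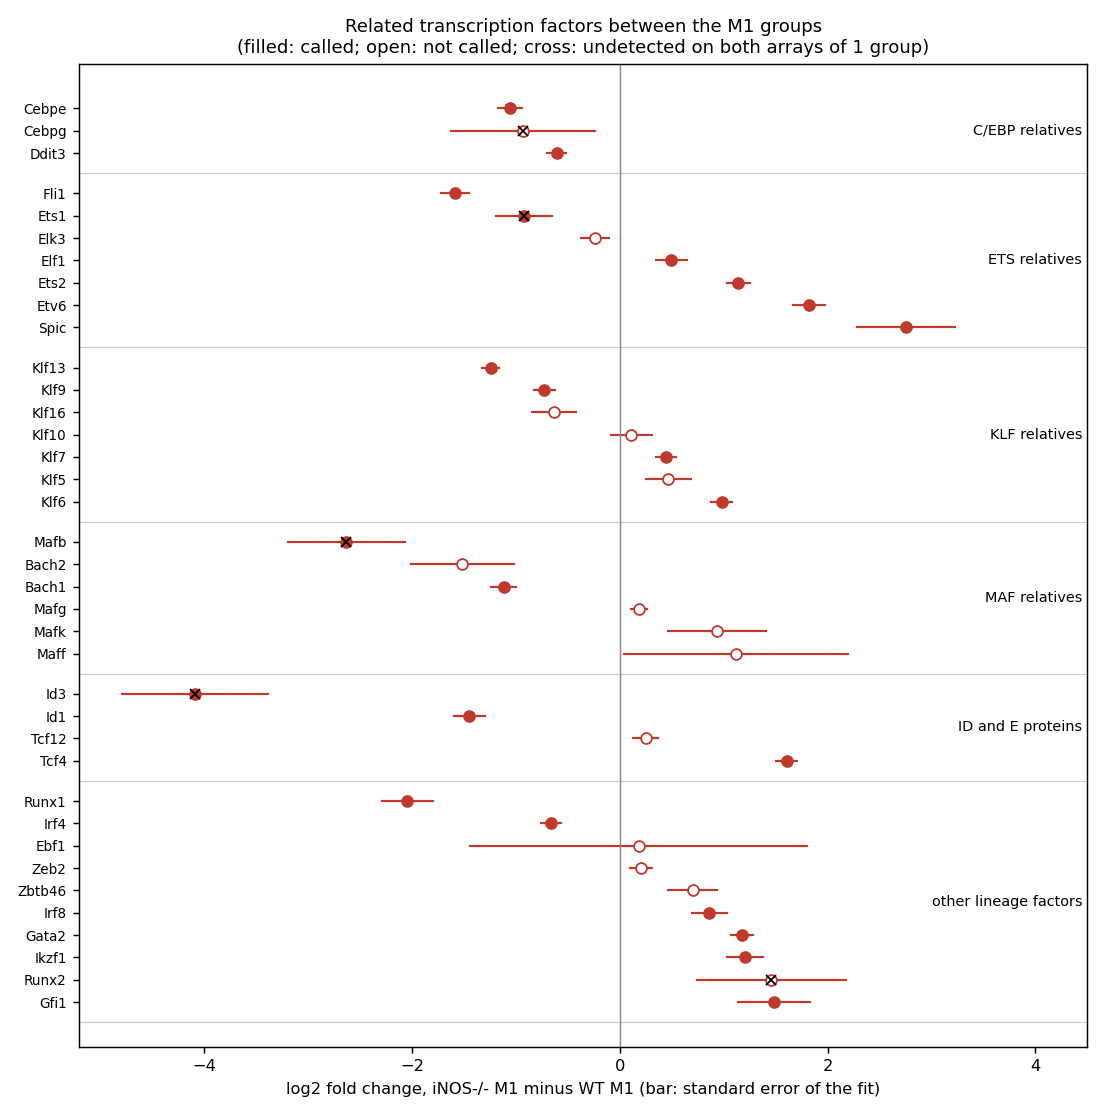
The log2 fold change between the M1 groups, iNOS-/- minus WT (horizontal axis), of the tested genes of 6 lists of related transcription factors, with standard errors of the limma fit. Filled points were called, open points were not, and crosses mark genes undetected on both arrays of a group; the 3 C/EBP relatives lie under 0, although Cebpg turned to 0.37 when the scaling line had an intercept, and the other lists hold genes on both sides.

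Genes that textbooks give as targets of PU.1 and C/EBP factors moved in both directions. Of 20 tested, 5 were higher and 9 lower between the M1 groups, with a median of -0.08 against -0.03 over all probes, of which 22.9% were higher and 25.3% lower. Lcn2, an antibacterial protein of granulocytes, was higher by 2.53 ± 0.11 (limma adjusted p = 0.00016) and Cd14, the LPS co-receptor, by 1.45 ± 0.13 (adjusted p = 0.00081). Tlr4, the receptor for LPS, was lower (-2.20 ± 0.13, adjusted p = 0.00029). Between the unstimulated groups 3 were higher and 6 lower (median -0.35), against 16.7% and 15.4% of all probes. Examples there were Lyz1 (-2.20 ± 0.20), Itgb2 (-0.92 ± 0.13) and Fcgr3 (-0.82 ± 0.13). Lyz1 is so close in sequence to Lyz2 that their signals may not be fully separate, which was not tested. In WT CON and iNOS-/- CON the mean log2 intensity was 7.41 and 5.21 for Lyz1 and 13.96 and 13.86 for Lyz2.

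For each member with a probe detected on all 8 arrays, the genes whose log2 intensity followed it most closely over the 8 arrays were sought among 9685 or 9686 other probes detected on all of them. The points are 8 arrays of 4 groups, so a correlation here mostly reflects the group means, and none is tested. Klf4 was followed by 2410002F23Rik (r = 0.997), Myo7a (0.996) and Dolpp1 (0.996), and Klf2 by 2610003J06Rik (0.996), Abcb8 (0.994) and Tmem180 (0.994). Id2 was followed by Acot10 (0.997), Ccdc23 (0.996) and 6330548G22Rik (0.996). The mean log2 intensity of Acot10, for example, was 8.36, 8.42, 8.36 and 9.75 in WT CON, WT M1, iNOS-/- CON and iNOS-/- M1. Cebpb was followed by EG667977 (0.990), 4933426M11Rik (0.985) and Blnk (0.981), and Sfpi1 by Myh9 (0.982) and Jund1 (0.952).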

How the data were processed

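RNA of 8 macrophage cultures, 2 arrays for each of 4 groups, was measured on Illumina mouse bead arrays (MouseRef-8 in the labels, MouseWG-8 in the methods). The deposited table gives the intensity of each probe, written by GenomeStudio and not normalized between arrays. Its header names no background subtraction, but 25.2 to 27.2% of values per array lie below 0. The deposited detection p-value of each probe compares it with negative control probes. The submitters' processing notes name GenomeStudio and limma 3.14.4.

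Intensities were scaled between arrays by a line through the origin over probes of unchanged rank, fitted with MASS 7.3.60.0.1. Such probes ranked between 0.5 and 0.9 both on the array and on the mean array. Their ranks differed by under 0.05 times the rank on the mean array. Scaled values were raised to at least 1 and log2 transformed. Probes with a detection p under 0.05 on at least 2 arrays were fitted by limma 3.58.1 in R 4.3.3 with 4 groups, and p-values were adjusted by the Benjamini-Hochberg method over 13868 probes. Calls are at an adjusted p under 0.05. Sequences were read with Python 3.11.15. The steps were tested on simulated data in which 197 of 13528 tested probes were changed in iNOS-/- M1. Between the M1 groups 48.3% of log2 changes of 1 and 69.4% of changes of 2 were called. Of the calls, 6.35% were false. A far larger share of probes is called in the real data, so these shares need not hold there.

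The alternatives were quantile normalization, neqc (offset 16), a scaling line with an intercept, a floor of 16, other detection filters, fits of 4 arrays, a replicate block, an intensity trend and each array left out. Those for the related genes and Nos2 were chosen after seeing the data. Members, lists and tests were chosen with earlier results of these data known. Named were every member probe, Nos2, the 3 genes most correlated with each member detected on all 8 arrays, every C/EBP, ID and E protein gene, and of each other list the 3 called genes with the largest change between genotypes, M1 and unstimulated, if detected on all 8 arrays. A few items that these rules or the marker lists take in are not reported here. The number of arrays limits the precision.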

Additional observations from a re-analysis of the deposited data

Results flagged for a closer look

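For 9 probes the response to LPS with IFN-g differed between the genotypes by the interaction term of the limma fit (iNOS-/- minus WT, log2). The difference was negative for Cebpa (-1.94), Klf2 (-2.35), Spib (-1.82) and the Klf4 probes ILMN_1241903 (-4.30), ILMN_2999439 (-3.45) and ILMN_1221264 (-5.35). Cebpa and Klf4 by ILMN_1221264 were undetected on both iNOS-/- M1 arrays, so their values are set in part by the floor and were -0.53 (not called) and -1.35 with a floor of 16. With a floor of 16 Spib was at -0.09 and with an intercept at -0.43, neither called. The difference was positive for Cebpb (0.83) and for the Id2 probes ILMN_1228557 (1.76) and ILMN_2887239 (1.90). Each group had 2 arrays, too few to look for single outlying arrays by a test.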

How the results depend on the processing

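Klf2, the 3 Klf4 probes, Cebpa and Id2 by ILMN_1228557 kept their direction and their call between the M1 groups under every alternative that could test them. The replicate numbers did not pair the arrays (correlations of deviations -0.0375 to 0.0247, 0 of 6 above 0.1), and with the replicate block the probes called between the unstimulated groups went from 2 to 1. That count was 4 with neqc, 3 with quantile normalization or an intensity trend and 1 with no detection filter, with detection on all 8 arrays or with the 4 arrays alone, and 1 to 2 with an array left out. With detection on all 8 arrays, 6 probes were tested and the counts were 4 (M1 groups), 1 (wild-type response), 5 (iNOS-/- response) and 5 (difference of the responses). The wild-type response gave 5 probes with a floor of 16 and 0 to 4 with an array left out, 1 without either WT CON array and 0 without either WT M1 array. Over all probes, 4459 calls between the unstimulated groups became 2837 and 2882 without WT CON array 1 and 2, and 2778 and 2823 without iNOS-/- CON array 1 and 2. The 4869 of the wild-type response became 3193 and 3164 without WT CON array 1 and 2, and 3238 without WT M1 array 2.

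Directions turned as follows, in log2 units, and the cause was not tested. Cebpb between the M1 groups was -0.32 with quantile normalization and with neqc. Id2 by ILMN_1228557 between the unstimulated groups was 0.13 with both, 0.0246 with an intercept, and between -0.0848 and 0.0466 with an array left out (0.0223 and 0.0466 without array 2 of WT CON and iNOS-/- CON, 0.0011 and 0.0016 without a WT M1 array, 0.0056 and 0.0043 without an iNOS-/- M1 array). Its wild-type response was -0.0124 without WT CON array 1. By ILMN_2887239 the unstimulated groups differed by -0.9918 to 0.0837 and the wild-type response was -0.3747 to 0.6994 with an array left out, turning without WT CON array 1 and without WT CON array 2. Spib in the iNOS-/- response was 0.0201 with an intercept, Sfpi1 between the unstimulated groups -0.0162 to 0.4098 with an array left out, turning without iNOS-/- CON array 1, and Cebpg 0.37 (M1 groups) and 0.21 (difference of the responses) with an intercept. Of the alternative results for member probes, 727 kept direction and side of the threshold, 52 lost the call, 25 gained it and 16 turned, and for the related genes these were 717, 19, 10 and 2.

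With an intercept the median of all probes moved to 0.24 (M1 groups), 0.20 (iNOS-/- response), 0.33 (difference) and -0.10 (wild-type response), and with quantile normalization to -0.06 (wild-type) and -0.13 (iNOS-/-). The higher share of calls moved from 47.5 to 58.4% (M1 groups) and 46.1 to 59.7% (difference) with an intercept, and from 59.3% in the wild-type response to 47.4, 44.4 and 49.0% with quantile normalization, neqc and an intercept. Values of Spib, Maf and, in iNOS-/- M1, Cebpa and Klf4 lie near the background of the arrays, which limits their folds.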
